A study of Mus musculus with 12 samples.

Results

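The 6 genes Dusp1, Dusp2, Dusp4, Dusp5, Dusp6 and Dusp10 encode dual-specificity phosphatases that switch off MAP kinases, and they were described in regulatory T cells (Tregs) from pancreatic islets and spleen. They were taken by symbol from a list that was chosen by measured values of these same samples, and all 6 were found among the 24417 genes listed in each table. Because the list was selected on these differences, the differences of the 6 genes are given as a description with their standard errors (SE). No p-value is given for any of the 6. Where counts of the 6 past a test threshold are given, nothing is read from them, since such a test is not independent of the choice. The mean normalized count, which is the mean over the 6 libraries of a table after the authors' size-factor scaling, was at least 10 for every one of the 6 genes in all 4 tables, so 0 of them fell below that level. The lowest value was 25.4, for Dusp6 in the 12-4.4m1 tissue table.

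RNA sequencing was done on Tregs, T cells that depend on Foxp3 and hold immune responses in check, of NOD mice, a strain prone to autoimmune diabetes. The mice were 6.8 weeks of age and retrogenic for an insulin-specific T cell receptor (TCR). Their blood cells carried introduced genes either for 4-8, the high-affinity receptor, or for 12-4.4m1, the low-affinity receptor. The 4 groups were islet 4-8, spleen 4-8, islet 12-4.4m1 and spleen 12-4.4m1, with 3 libraries each and 12 in all, and each pair of groups compared had its own table, normalized on its own. The labels give neither the number of animals behind a library nor whether an islet and a spleen library share an animal, so errors and p-values measure only the spread between these libraries, which may be technical. All groups carried an introduced receptor, so there was no group with a natural receptor repertoire.

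MAP kinases belong to relays that run from the TCR through Ras and other switches. They are active only while a threonine and a tyrosine of their activation loop both carry phosphate. Dual-specificity phosphatases remove both phosphates. Many of their genes are themselves turned on by the kinases they silence, so in T cells they are known as feedback brakes that appear soon after stimulation. The products of Dusp1, Dusp2, Dusp4 and Dusp5 act in the nucleus, Dusp6 acts in the cytoplasm on ERK kinases, and Dusp10 acts mainly on the JNK and p38 kinases.

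The family shares a catalytic signature that starts with a histidine and the catalytic cysteine and ends with an arginine. The stretches of 24 coding bases below, from GENCODE vM21 transcripts, show what unites the 6 genes at the active site, with the cysteine and arginine codons in capitals.

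Dusp1: catTGCcaggccggcatctccCGG
Dusp2: cacTGCcaagctggcatctctCGC
Dusp4: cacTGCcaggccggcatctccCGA
Dusp5: cacTGCgaagctggggtttccCGG
Dusp6: catTGCttggcaggtatcagcCGC
Dusp10: cacTGCcaggccggcgtgtccCGA

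Each of the 6 coding sequences held the signature 1 time. The cysteine codon was identical in all 6 genes. The closest pairs shared 22 of 24 bases and the most distant pair 13 of 24. The cysteine codon was number 258 of 367 in Dusp1, 263 of 384 in Dusp5 and 293 of 381 in Dusp6. The 6 genes lie on 6 chromosomes of GRCm38 and are protein-coding. In GENCODE vM21, Dusp1 spans chr17:26505590-26562128 on the minus strand. The other genes lie on the plus strand, Dusp2 at chr2:127336159-127338376, Dusp4 at chr8:34807297-34819894, Dusp5 at chr19:53529109-53542431, Dusp6 at chr10:99263231-99267489 and Dusp10 at chr1:184013302-184075636.

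RefSeq promoter windows on GRCm38.p6, from 250 bases before to 50 after a start site, were held for 5 of the genes (Dusp1, Dusp2, Dusp5, Dusp6 and Dusp10). They were searched on both strands, overlaps allowed, for the cAMP response element TGACGTCA, the AP-1 element TGANTCA, the ETS element CCGGAAG, the EGR element GCGGGGGCG, the NFAT core GGAAAA and the CArG box of serum response factor. The stretches from 200 to 41 bases before the start sites of the 3 genes with a match are printed with the matched letters in capitals. They are shown because Dusp1 and Dusp5, which had the largest islet values of the family, differ in these letters.

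Dusp1, chr17:26508513-26508672, minus strand: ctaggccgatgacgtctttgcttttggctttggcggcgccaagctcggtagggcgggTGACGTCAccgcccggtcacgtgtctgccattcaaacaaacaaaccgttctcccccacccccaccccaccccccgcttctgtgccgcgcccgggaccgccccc
Dusp5, chr19:53528945-53529104, plus strand: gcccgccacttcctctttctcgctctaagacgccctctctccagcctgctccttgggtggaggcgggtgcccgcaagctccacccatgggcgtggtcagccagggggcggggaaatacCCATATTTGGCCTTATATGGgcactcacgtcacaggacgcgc
Dusp2, chr2:127335959-127336118, plus strand: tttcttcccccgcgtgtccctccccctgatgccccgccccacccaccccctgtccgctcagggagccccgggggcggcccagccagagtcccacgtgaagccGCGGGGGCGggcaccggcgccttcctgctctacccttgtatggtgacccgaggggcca

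The Dusp1 window held 1 cAMP response element, at -143 to -136 from the start site, a motif present in 1.79% of the 32851 RefSeq promoters. The Dusp5 window held 2 CArG boxes side by side, at -82 to -73 and -72 to -63, and 1.63% of all promoters held at least 1. The Dusp2 window held 1 EGR element, at -98 to -90, found in 2.91% of promoters. None of the 6 motifs was found in the Dusp6 and Dusp10 windows. The AP-1 element (7.81% of promoters), the ETS element (8.86%) and the NFAT core (23.4%) matched in none of the 5 windows. GC content was 67% in the Dusp1 window, 66.7% in Dusp5, 70.7% in Dusp2, 61.0% in Dusp10 and 57.3% in Dusp6, against a median of 52.7% over all promoters. A match describes letters and not binding.

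The levels per transcript length put Dusp1 and Dusp5 far above the rest in islet Tregs. In the authors' deposited tissue tables, which give 1 FPKM (fragments scaled to transcript length and library size) per group and no spread, the order in islet 4-8 Tregs was Dusp5 at 778, Dusp1 at 635, Dusp4 at 111, Dusp2 at 102, Dusp10 at 28.6 and Dusp6 at 15.2 FPKM. In spleen 4-8 Tregs the same deposited table gave Dusp5 at 116, Dusp2 at 61.4, Dusp1 at 35.1, Dusp4 at 29.8, Dusp10 at 14.5 and Dusp6 at 7.88 FPKM. Dusp1 thus stood behind Dusp5 alone in the islet group and behind both Dusp5 and Dusp2 in the spleen group.

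For 12-4.4m1, the authors' deposited table listed Dusp1 at 622, Dusp5 at 486, Dusp2 at 119, Dusp4 at 95.9, Dusp10 at 28.1 and Dusp6 at 14.6 FPKM in islet Tregs. In spleen 12-4.4m1 Tregs the deposited values were 90.4 for Dusp5, 50.8 for Dusp2, 32.2 for Dusp1, 14.4 for Dusp4, 6.35 for Dusp10 and 4.59 FPKM for Dusp6. Dusp10 and Dusp6 were the lowest 2 in all 4 groups. Among the genes of the deposited table, ordered by FPKM, Dusp1 was number 233 of 12482 with a value above 0 in islet 4-8 Tregs and number 2435 of 13499 in spleen 4-8 Tregs. Without a spread for these group values, neighbours in the order could not be set against replicate error.

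**Figure D1:**
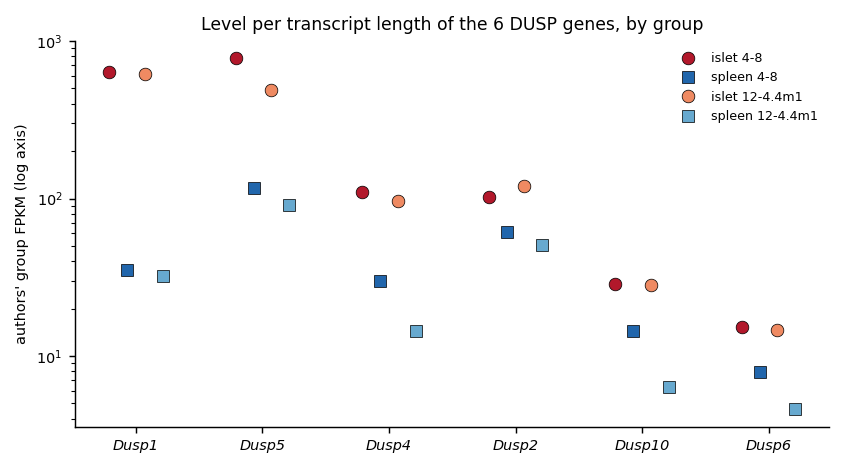
The authors' group FPKM on a log axis for the 6 genes, 1 value per group with no replicate spread, from the tissue tables; circles are islet and squares spleen groups. The islet value is above the spleen value of the same TCR for each gene, and the gap is widest for Dusp1 (635 against 35.1 FPKM for 4-8, 622 against 32.2 for 12-4.4m1).

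Between tissues, Dusp1, the nuclear phosphatase of p38, JNK and ERK kinases, had the largest difference of the 6 genes with either TCR. On the log2 scale of the authors' rlog values (a regularized logarithm that pulls low counts towards their mean), it measured 9.91, 10.23 and 10.41 in islet 4-8 Tregs, against 6.99, 7.21 and 7.35 in spleen 4-8 Tregs. The lowest islet library lay 2.57 above the highest spleen library. The difference of means was 2.997 ± 0.16 (log2, SE, n = 3 each, 95% interval 2.66 to 3.34), a 7.98-fold ratio on the rlog scale.

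In 12-4.4m1 Tregs, Dusp1 measured 9.55, 9.59 and 10.03 in islets, against 6.31, 6.40 and 7.09 in spleen, again with no overlap. The difference was 3.12 ± 0.19 (log2, SE, 95% interval 2.74 to 3.50), or 8.71-fold. In the order of differences over all genes tested, it was number 9 of 8981 for 4-8 and number 5 of 8438 for 12-4.4m1. The authors' deposited tables give wider ratios for Dusp1, which rlog values compress: 3.93 and 3.94 on the log2 scale by DESeq2 (sign turned to islets over spleen), and 18.1-fold and 19.3-fold by FPKM.

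Dusp5, a nuclear phosphatase selective for ERK kinases, came next in 4-8 Tregs. It measured 9.54, 9.75 and 9.96 in islet 4-8 libraries, against 7.69, 7.72 and 7.84 in spleen 4-8 libraries. The groups did not overlap, and the difference was 2.0002 ± 0.15 (log2, SE, 95% interval 1.69 to 2.31), a 4.001-fold ratio. In 12-4.4m1 Tregs, Dusp5 measured 8.42, 8.43 and 8.98 in islets, against 6.74, 6.74 and 7.23 in spleen. There 1 library of each tissue, both numbered 3, stood above the other two, and the difference was 1.71 ± 0.18 (log2, SE, 95% interval 1.34 to 2.07).

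Dusp4, a nuclear phosphatase of ERK and JNK kinases, measured 7.89, 7.93 and 8.46 in islet 4-8 libraries, against 6.70, 6.71 and 7.10 in spleen 4-8 libraries. The islet libraries were all higher, by 1.26 ± 0.18 on average (log2, SE, 95% interval 0.87 to 1.64). In 12-4.4m1 Tregs it measured 7.39, 7.41 and 7.44 in islets, against 5.57, 5.62 and 5.77 in spleen. The islet libraries were close together, and the difference was 1.76 ± 0.16 (log2, SE, 95% interval 1.42 to 2.10), a 3.38-fold ratio beside the 2.39-fold ratio of 4-8. The difference between these differences, from tables normalized separately, was not tested.

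Dusp2, a nuclear phosphatase first known from activated lymphocytes, differed less. It measured 7.36, 7.50 and 7.85 in islet 4-8 libraries, against 7.04, 7.12 and 7.14 in spleen 4-8 libraries, a difference of 0.47 ± 0.16 (log2, SE, 95% interval 0.12 to 0.81). In 12-4.4m1 Tregs it measured 7.08, 7.24 and 7.51 in islets, against 6.29, 6.40 and 6.60 in spleen, a difference of 0.85 ± 0.17 (log2, SE, 95% interval 0.50 to 1.20). With either TCR, the 3 islet libraries stood above the 3 spleen libraries.

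Dusp10, the phosphatase of JNK and p38 kinases, measured 6.31, 6.48 and 6.63 in islet 4-8 libraries, against 5.57, 5.87 and 6.15 in spleen 4-8 libraries. These groups were separated by 0.16 at their nearest libraries, and the difference was 0.61 ± 0.19 (log2, SE, 95% interval 0.22 to 1.002). In 12-4.4m1 Tregs it measured 5.73, 5.75 and 5.92 in islets, against 4.55, 4.86 and 4.91 in spleen, a difference of 1.02 ± 0.19 (log2, SE, 95% interval 0.64 to 1.41).

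Dusp6, the cytoplasmic ERK phosphatase, was the only one of the 6 genes whose tissue groups overlapped, and it did so with both TCRs. It measured 5.32, 5.40 and 5.69 in islet 4-8 libraries, against 4.96, 4.98 and 5.41 in spleen 4-8 libraries, a difference of 0.35 ± 0.19 (log2, SE, 95% interval -0.05 to 0.76). In 12-4.4m1 Tregs it measured 4.05, 4.82 and 5.16 in islets, against 3.95, 4.13 and 4.26 in spleen, a difference of 0.56 ± 0.23 (log2, SE, 95% interval 0.09 to 1.03). The lowest islet library, 12-4.4m1 replicate 3, lay within the spleen range. Without it the difference was 0.87, and without islet replicate 2 it was 0.32.

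**Figure D2:**
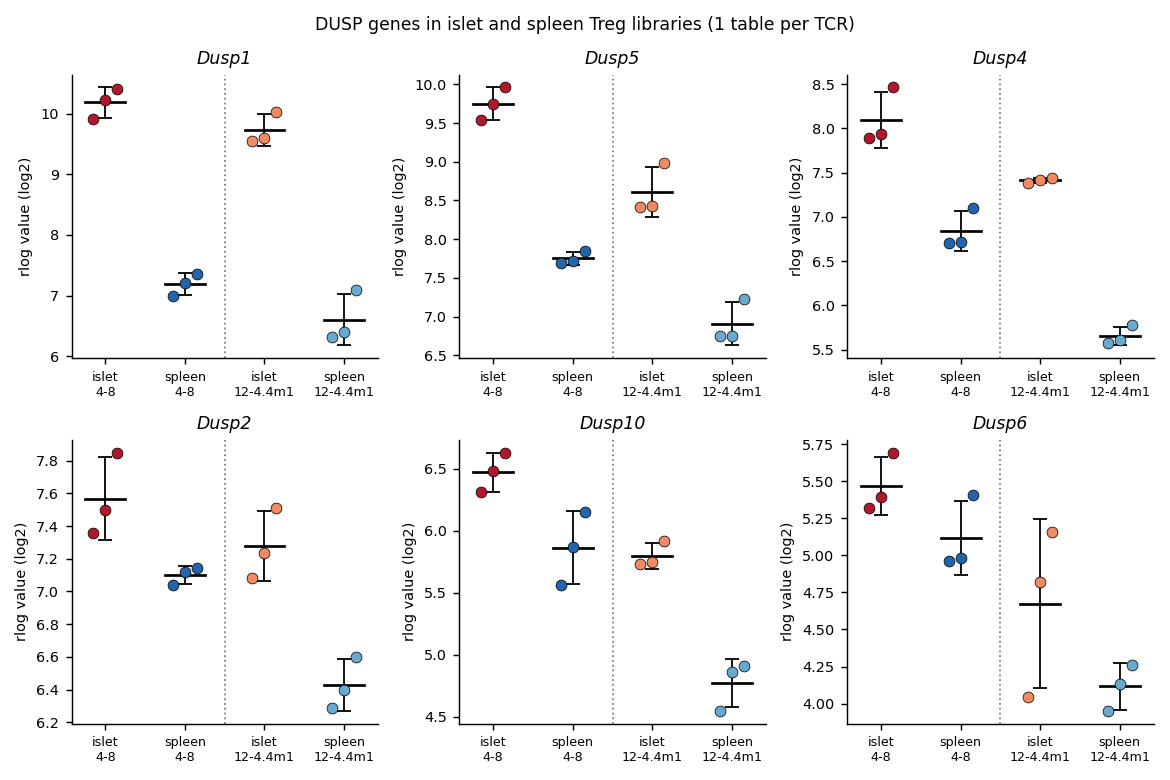
Each panel plots the rlog value (log2, vertical axis) of a gene in each library, with islet left of spleen and 1 table per TCR left and right of the dotted line; bars are the mean and SD of 3 libraries. Islet and spleen points are apart for all genes but Dusp6, and furthest apart for Dusp1, whose means differ by 2.997 for 4-8 and 3.12 for 12-4.4m1.

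Over the 6 genes, the islet mean was higher in 6 of 6 with each TCR, and the groups did not overlap for 5 of 6 with each TCR. Over all genes tested, the 3 islet libraries stood above the 3 spleen libraries for 14.3% of genes for 4-8 and 13.2% for 12-4.4m1. By limma at an adjusted p of 0.05, 3 of the 6 (Dusp1, Dusp4 and Dusp5) were past the threshold for 4-8, where 5.14% of genes were called higher. For 12-4.4m1 it was 5 of 6, all but Dusp6, where 4.63% of genes were called higher. The authors' deposited DESeq2 tables called the same 3 and the same 5, with 4.72% and 3.44% of their genes called higher. The authors' deposited Cuffdiff tables called 5 for 4-8, all but Dusp6, and all 6 for 12-4.4m1, with 9.87% and 9.5% called higher. Since the list was chosen on this contrast, nothing is read from these counts. The median difference of the 6 genes was 0.93 for 4-8 and 1.36 for 12-4.4m1, beside -0.01 and -0.002 over all genes tested.

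The islet libraries also differed from the spleen libraries in genes of protein stress and of another cell type. The mean rlog value of the 12 heat-shock genes tested, which encode chaperones made under protein stress, ranged from 8.28 to 8.45 in islet 4-8 libraries, against 6.68 to 6.76 in spleen 4-8 libraries. For 12-4.4m1 it ranged from 8.31 to 8.68 in islets, against 6.58 to 6.87 in spleen. Of those 12 genes, 11 rose in islets with each TCR, among them Hspa1a (4.15 ± 0.20 for 4-8 and 4.32 ± 0.19 for 12-4.4m1, log2, SE, limma adjusted p = 2.9e-10 and 1.5e-14), Hspa1b (3.94 ± 0.17 and 4.09 ± 0.22, adjusted p = 1.2e-10 and 1.6e-12) and Dnajb1 (1.89 ± 0.17 and 2.45 ± 0.17, adjusted p = 1.0e-06 and 1.8e-10).

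The 6 marker genes of pancreatic acinar cells, which make digestive enzymes, summed to 167 FPKM in islet 4-8 Tregs, against 12.9 in spleen 4-8 Tregs, in the authors' deposited tables. For 12-4.4m1 the deposited sums were 284 FPKM in islets, against 10.2 in spleen. Of the 4 acinar genes tested, 2 rose in islets for 4-8 and 3 for 12-4.4m1. Ctrb1, the precursor of chymotrypsin, differed by 2.16 ± 0.29 for 4-8 and 2.32 ± 0.21 for 12-4.4m1 (log2, SE, limma adjusted p = 9.7e-05 and 3.0e-08). Pnlip, pancreatic lipase, differed by 1.11 ± 0.18 and 1.46 ± 0.19 (adjusted p = 0.00076 and 9.1e-06), and Cel, another lipase, by 1.04 ± 0.19 for 12-4.4m1 (adjusted p = 0.00063). In spleen Tregs, 3 of the 6 acinar genes were listed at 0 FPKM for 4-8 and 4 of 6 for 12-4.4m1, while 0 of 6 were at 0 in the islet groups. In sorted bulk samples, fewer cells of a type and less RNA per cell cannot be told apart. What part the heat-shock and acinar genes had in the values of the 6 phosphatase genes was not tested.

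Treg marker genes were present in all groups, with 0 of 5 at 0 FPKM. Foxp3, the factor that defines Tregs, was listed at 163 FPKM in islet 4-8 and 163 in spleen 4-8 Tregs, and at 165 in islet and 149 FPKM in spleen 12-4.4m1 Tregs, in the authors' deposited tables. Its tissue difference was -0.06 ± 0.14 for 4-8 and 0.08 ± 0.15 for 12-4.4m1 (log2, SE, limma adjusted p = 0.85 and 0.81). Of 5 Treg genes, only Ctla4, an inhibitory receptor of Tregs, rose in islets (2.03 ± 0.15 and 2.21 ± 0.16, adjusted p = 1.5e-07 and 2.2e-10), and 0 were called lower. The median difference of the 5 was 0.15 for 4-8 and -0.015 for 12-4.4m1. Ikzf2 was listed at 126 FPKM in islet 4-8 and 154 in islet 12-4.4m1 Tregs in the deposited TCR tables. In spleen it was at 175 and 215 FPKM. Il2ra and Tnfrsf18 were listed higher in islets for 4-8 and lower for 12-4.4m1 in those separately normalized tables. Cd4, the co-receptor of helper and regulatory T cells, differed by 0.71 ± 0.15 and 0.86 ± 0.14 (adjusted p = 0.0066 and 0.00024). Cd3e, a chain of the TCR complex, differed by 0.52 ± 0.14 for 4-8 and 0.41 ± 0.14 for 12-4.4m1 (adjusted p = 0.031 and 0.080), and the 4-8 call was lost when any 1 of 4 libraries (islet replicate 3 or a spleen library) was left out.

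Markers of each remaining cell type summed to at most 41.2 FPKM in a group. In the deposited tissue tables, cytotoxic T and NK cell markers summed to 0.996 FPKM in islet 4-8, 4.69 in spleen 4-8, 11.3 in islet 12-4.4m1 and 3.25 in spleen 12-4.4m1 Tregs, and B cell markers to 3.04, 9.36, 1.18 and 9.40 FPKM in the same groups. Endocrine cell markers summed to 7.02 FPKM in islet 4-8, 5.38 in spleen 4-8, 41.2 in islet 12-4.4m1 and 26.3 in spleen 12-4.4m1 Tregs. The 12-4.4m1 sums were above Dusp10 (28.1 in islets and 6.35 in spleen) and Dusp6 (14.6 and 4.59). In the TCR tables Ins2, an insulin gene, was at 29.3 FPKM in islet 12-4.4m1 and 4.14 in islet 4-8 Tregs. Gcg, the glucagon gene, was at 27.3 FPKM in spleen 12-4.4m1 and 5.49 in spleen 4-8 Tregs. Myeloid markers stayed between 7.79 and 19.2 FPKM, endothelial markers between 2.41 and 10.4 FPKM, and fibroblast markers between 0.453 and 1.76 FPKM over the 4 groups. Pecam1, an endothelial adhesion receptor, fell in islet 4-8 Tregs by 0.67 on the log2 scale (SE 0.19, limma adjusted p = 0.037), a call lost when any 1 of 4 libraries (islet replicate 1 or a spleen library) was left out.

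None of the other typical MAP kinase phosphatases was called between tissues: by limma 0 of 2 tested passed for 4-8 (1 at an unadjusted p under 0.05) and 0 of 1 for 12-4.4m1 (0 at an unadjusted p under 0.05), and the authors' DESeq2 and Cuffdiff tables called 0. With so few genes tested, little can be read from 0 of 2 and 0 of 1. Dusp7, a cytoplasmic ERK phosphatase, measured 4.93 ± 0.22 in islet and 5.19 ± 0.27 in spleen 4-8 Tregs (rlog, SD, n = 3 each), a difference of -0.25 ± 0.20 (SE, limma adjusted p = 0.49). For 12-4.4m1 its difference was 0.16 ± 0.19 (adjusted p = 0.70). Dusp16, a JNK phosphatase, differed by 0.54 ± 0.18 for 4-8 (adjusted p = 0.077) and was below a mean normalized count of 10 in the other 3 tables. Dusp8 and Dusp9 were below 10 in all 4 tables. Dusp14, an atypical dual-specificity phosphatase without the kinase-binding domain of the typical ones, rose in islets by 1.46 ± 0.19 for 4-8 and 1.15 ± 0.19 for 12-4.4m1 (adjusted p = 8.8e-05 and 0.00033), the only called one of 6 and of 4 atypical genes tested.

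The kinases that the phosphatases act on were not called different between tissues by limma. Of 7 MAP kinase genes tested in each tissue comparison, 0 passed, 0 had an unadjusted p under 0.05, and the authors' DESeq2 and Cuffdiff tables called 0. Over all genes tested, limma called 717 of 8981 for 4-8 and 575 of 8438 for 12-4.4m1, so little can be read from 0 of 7. Mapk3, an ERK gene, differed by 0.31 ± 0.18 for 4-8 and 0.30 ± 0.23 for 12-4.4m1 (log2, SE). The JNK genes Mapk8 (-0.08 ± 0.19 and -0.05 ± 0.19) and Mapk9 (-0.29 ± 0.18 and -0.05 ± 0.21) and the p38 gene Mapk14 (0.18 ± 0.19 and 0.29 ± 0.19) likewise did not pass.

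Upstream of the kinases, limma called 1 gene of Ras activation higher and 2 lower in islets for 4-8, and 1 higher and 1 lower for 12-4.4m1. Among 6 MAP2 kinases tested, 1 was called higher for 4-8 and 0 for 12-4.4m1. Over all genes tested, limma called 717 of 8981 for 4-8 and 575 of 8438 for 12-4.4m1. Of 13 genes of Ras activation, Plcg1, the phospholipase that feeds Ras activation after TCR ligation, rose in islets by 0.84 ± 0.21 for 4-8 and 0.94 ± 0.18 for 12-4.4m1 (log2, SE, limma adjusted p = 0.018 and 0.0015), the 4-8 call being lost without any 1 of the 3 spleen libraries. Rasgrp2, an exchange factor of the small GTPase Rap, fell by 1.07 for 4-8 (SE 0.18, adjusted p = 0.00093) and by 0.74 for 12-4.4m1 (SE 0.22, adjusted p = 0.046), the second call being lost without islet replicate 2, spleen replicate 1 or spleen replicate 2. Map2k3, the kinase that activates p38, rose by 0.58 ± 0.16 for 4-8 (adjusted p = 0.033) and lost the call without any 1 of 4 libraries (islet replicate 1 or a spleen library). Of 12 MAP3 kinases and 6 scaffold genes, 0 passed with either TCR, with 5 and 5 MAP3 kinases and 0 and 2 scaffold genes at an unadjusted p under 0.05, 0 called by the authors' DESeq2 tables, and 2 and 3 MAP3 kinases and 0 and 2 scaffold genes called by Cuffdiff.

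Other brakes of the Ras and ERK relay moved in both directions. Errfi1, an inhibitor of receptor tyrosine kinases, rose in islets by 1.58 ± 0.20 for 4-8 and 1.28 ± 0.21 for 12-4.4m1 (log2, SE, limma adjusted p = 5.6e-05 and 0.00023). Spry1, a Sprouty inhibitor of the relay, rose by 1.03 ± 0.20 for 4-8 (adjusted p = 0.0040), and Rasal3, a Ras GTPase-activating protein of T cells, by 0.92 ± 0.14 for 12-4.4m1 (adjusted p = 0.00016). Rasa3, a GTPase-activating protein of Ras and Rap, fell by 0.59 for 4-8 (SE 0.16, adjusted p = 0.034) and by 0.58 for 12-4.4m1 (SE 0.17, adjusted p = 0.038), and lost the call without any 1 of 5 libraries for 4-8 (all but islet replicate 2) and any 1 of 4 for 12-4.4m1 (all but islet replicate 1 and spleen replicate 3). In all, 2 of 12 genes of this group rose and 1 fell for 4-8, and 2 of 11 rose and 1 fell for 12-4.4m1.

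Of 8 phosphatases of other families, Ptpn5, a tyrosine phosphatase of ERK and p38 best known in brain, rose by 0.91 ± 0.18 for 4-8 (limma adjusted p = 0.0040), where 3 had an unadjusted p under 0.05. For 4-8 the authors' DESeq2 table called Ptpn5 alone, and their Cuffdiff table called it with Ppm1a and Ptpn7, which did not pass by limma at -0.44 ± 0.19 and -0.41 ± 0.15 (log2, SE, adjusted p = 0.18 and 0.096). By limma 0 of 8 passed for 12-4.4m1, with 1 at an unadjusted p under 0.05 and 0 called in the authors' DESeq2 and Cuffdiff tables. Among 9 kinases phosphorylated by MAP kinases, Mknk2, a kinase of a translation factor, rose by 0.70 ± 0.16 for 12-4.4m1 (adjusted p = 0.0094), a call lost without spleen replicate 3, and 0 of 9 passed for 4-8, where 2 had an unadjusted p under 0.05 and the authors' DESeq2 and Cuffdiff tables each called 1, Mknk2.

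Transcription of the early genes is known to follow MAP kinase activity within a short time, but that activity was not measured here. These genes mostly rose in islet Tregs, and the cause was not tested. Of 17 tested, 11 rose and 0 fell with each TCR, with a median difference of 1.17 for 4-8 and 1.37 for 12-4.4m1. Fos, a subunit of the AP-1 factor, differed by 4.24 ± 0.18 and 4.46 ± 0.19 (log2, SE, limma adjusted p = 1.2e-10 and 1.5e-14), and its partner Jun by 2.71 ± 0.21 and 2.94 ± 0.19 (adjusted p = 1.5e-07 and 3.2e-11). Fosb differed by 3.27 ± 0.19 for 4-8 (adjusted p = 5.1e-09) and Junb by 1.96 ± 0.15 for 12-4.4m1 (adjusted p = 8.9e-10). Dusp1, at 2.997 and 3.12, lay between Jun and Fos with each TCR. Over all lists of the relay without the 6 genes, 17 of 98 genes tested rose and 3 fell for 4-8, and 16 of 94 rose and 2 fell for 12-4.4m1. The early genes made up 11 of the 17 and 11 of the 16. Over all genes tested, 5.14% were called higher for 4-8 and 4.63% for 12-4.4m1.

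**Figure D3:**
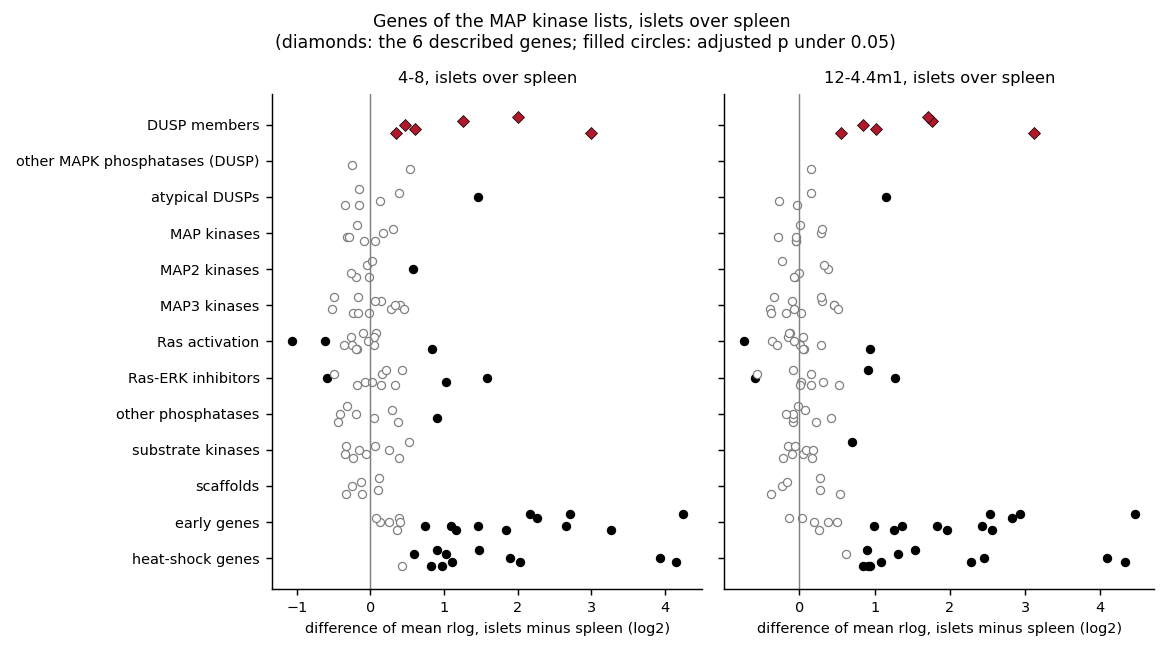
Each point is a gene; the horizontal axis is the difference of mean rlog values, islets minus spleen (log2), and the rows are lists of the MAP kinase relay and heat-shock genes. Diamonds are the 6 phosphatase genes, drawn without marking which passed a threshold. Filled circles passed limma at an adjusted p of 0.05: 11 early genes and 11 heat-shock genes with each TCR, and 0 MAP kinase genes.

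Between the TCRs within islets, which sets the high-affinity receptor against the low-affinity one, the 6 genes differed little except for Dusp5. Dusp5 measured 9.21, 9.45 and 9.65 in islet 4-8 Tregs, against 8.68, 8.68 and 9.24 in islet 12-4.4m1 Tregs. The groups overlapped by 1 library, since 12-4.4m1 replicate 3 lay just above 4-8 replicate 1. The difference was 0.57 ± 0.19 (log2, SE, n = 3 each, 95% interval 0.17 to 0.97), number 97 in the order of differences over 8212 genes. The authors' deposited table listed Dusp5 at 754 FPKM in islet 4-8 and 465 FPKM in islet 12-4.4m1 Tregs. The other 5 genes differed by -0.18 to 0.07, and the 95% interval of each spanned 0. The interval was -0.35 to 0.42 for Dusp1 and -0.33 to 0.47 for Dusp4.

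In islets, 0 of the 6 genes had TCR groups without overlap, beside 11.9% of all genes tested. By limma 0 of the 6 were past an adjusted p of 0.05, with 1 at an unadjusted p under 0.05, and 0.365% of genes were called. The authors' deposited DESeq2 and Cuffdiff tables called 0 of the 6 (0.353% and 0.928% of their genes). Beside this, the mean rlog value of 13 heat-shock genes ranged from 7.80 to 7.92 in islet 4-8 libraries, against 8.06 to 8.41 in islet 12-4.4m1 libraries, so these groups did not overlap. Of those 13 genes, 0 passed by limma, 6 had an unadjusted p under 0.05, and the authors' tables called 3 by DESeq2 and 2 by Cuffdiff. Acinar markers summed to 162 FPKM in islet 4-8 and 272 FPKM in islet 12-4.4m1 Tregs in the deposited table. Their part in the values of the 6 genes was not tested.

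The islet libraries carry titles of either of a pair of styles, written with "R" or with "Treg", and each TCR has libraries of both. For 4-8, 2 are titled with R and 1 with Treg, and for 12-4.4m1, 1 with R and 2 with Treg. Style and TCR are therefore partly mixed. In the islet TCR table, Dusp1 was 10.10 to 10.33 in the 3 libraries titled with R, against 9.81 to 9.90 in the 3 titled with Treg. Dusp6 was 4.47 to 4.998 in libraries titled with R, against 5.16 to 5.45 in those titled with Treg. These were 2 of the 6 genes whose title styles did not overlap, beside 17.6% of all genes tested. Within a style, a TCR difference sets 2 libraries against 1, so the within-style values are given without an error. Within the style R the difference of Dusp5 between 4-8 and 12-4.4m1 was 0.20, and within the style Treg it was 0.77. With the style as a term in the fit it was 0.48 ± 0.17 (SE). For Dusp1 the within-style differences were -0.14 and -0.07, for Dusp4 -0.14 and 0.46, for Dusp2 -0.28 and 0.09, for Dusp6 0.50 and -0.03, and for Dusp10 0.04 and -0.01. What the style marks is not stated in the labels. All spleen libraries carry titles with R. With only the islet libraries titled with R, the tissue difference of Dusp1 for 4-8 was 3.13, beside 2.997 with all libraries. The same restriction gave 1.07 for Dusp4, 0.33 for Dusp2 and 0.24 for Dusp6, beside 1.26, 0.47 and 0.35. For 12-4.4m1 the 1 islet library titled with R had Dusp1 at 10.03, above the 3 spleen libraries at 6.31 to 7.09. Its Dusp2, Dusp4, Dusp5 and Dusp10 values were also above the spleen libraries. Its Dusp6 value of 4.05 lay within the spleen range of 3.95 to 4.26, while the islet libraries titled with Treg were at 4.82 and 5.16.

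Between the TCRs within spleen, the means of all 6 genes were higher with 4-8, by 0.05 to 0.46. Dusp4 measured 6.25, 6.28 and 6.63 in spleen 4-8 Tregs, against 5.86, 5.90 and 6.04 in spleen 12-4.4m1 Tregs. The groups did not overlap, and the difference was 0.46 ± 0.13 (log2, SE, n = 3 each, 95% interval 0.19 to 0.72), number 36 in the order over 9108 genes. The authors' deposited table listed Dusp4 at 31.1 FPKM in spleen 4-8 and 14.9 FPKM in spleen 12-4.4m1 Tregs.

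Dusp10 measured 5.23, 5.46 and 5.64 in spleen 4-8 Tregs, against 4.94, 5.17 and 5.18 in spleen 12-4.4m1 Tregs, and the nearest libraries were 0.05 apart. Its difference was 0.35 ± 0.13 (log2, SE, 95% interval 0.08 to 0.61). Dusp6 measured 4.64, 4.64 and 4.96 in spleen 4-8 Tregs, against 4.41, 4.53 and 4.61 in spleen 12-4.4m1 Tregs, separated by 0.02. Its difference of 0.23 ± 0.12 (log2, SE, 95% interval -0.01 to 0.46) was 0.07 when the libraries numbered 2 were left out. Dusp1, Dusp2 and Dusp5 overlapped between the TCRs, with differences of 0.05 ± 0.14 for Dusp1, 0.18 ± 0.12 for Dusp2 and 0.19 ± 0.13 for Dusp5 (log2, SE).

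The 3 of 6 genes without overlap stand beside 13.3% of all genes tested without overlap in either direction. By limma 0 of the 6 were past the threshold, with 2 at an unadjusted p under 0.05, and 0.428% of genes were called. The authors' deposited DESeq2 table called 0 (0.231% of its genes) and the deposited Cuffdiff table called 1, Dusp4 (1.13% of its genes). Heat-shock genes, 10 of them tested, averaged 7.06 to 7.10 in spleen 4-8 libraries, against 7.18 to 7.42 in spleen 12-4.4m1 libraries. Their part in these values was not tested.

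**Figure D4:**
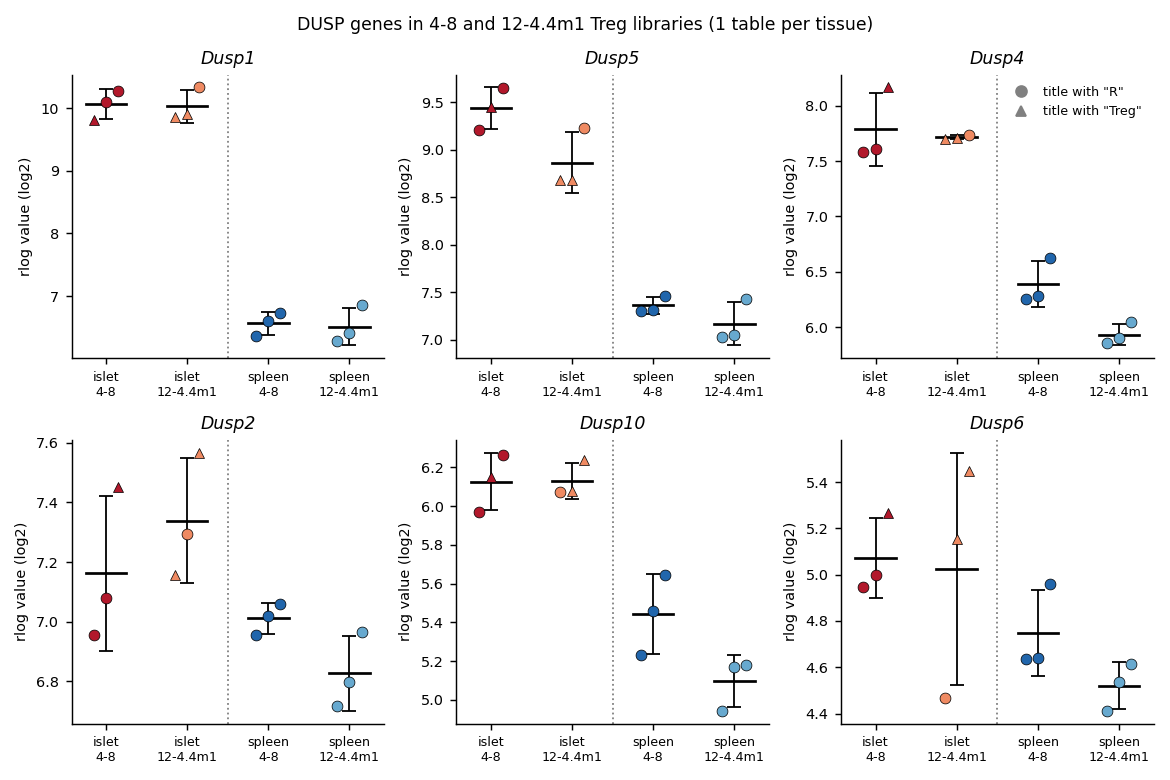
Each panel plots the rlog value (log2, vertical axis) of a gene in each library, with 4-8 left of 12-4.4m1, islets left and spleen right of the dotted line; bars are the mean and SD of 3 libraries, circles are titles with R and triangles titles with Treg. The TCR groups overlap for every gene in islets, and in spleen they are apart for Dusp4, Dusp10 and Dusp6.

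Other genes of the relay were not called between the TCRs. By limma 0 of 94 genes passed in islets and 0 of 91 in spleen, with 10 and 5 at an unadjusted p under 0.05, and the authors' DESeq2 and Cuffdiff tables called 0 of them in either tissue. The median difference of those genes was -0.07 in islets and 0.03 in spleen, beside -0.004 and -0.0009 over all genes tested. Fos was lower by 0.55 in islet 4-8 Tregs than in islet 12-4.4m1 Tregs without passing (SE 0.18, adjusted p = 0.33). Foxp3 differed by -0.005 ± 0.19 in islets and 0.14 ± 0.12 in spleen.

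**Figure D5:**
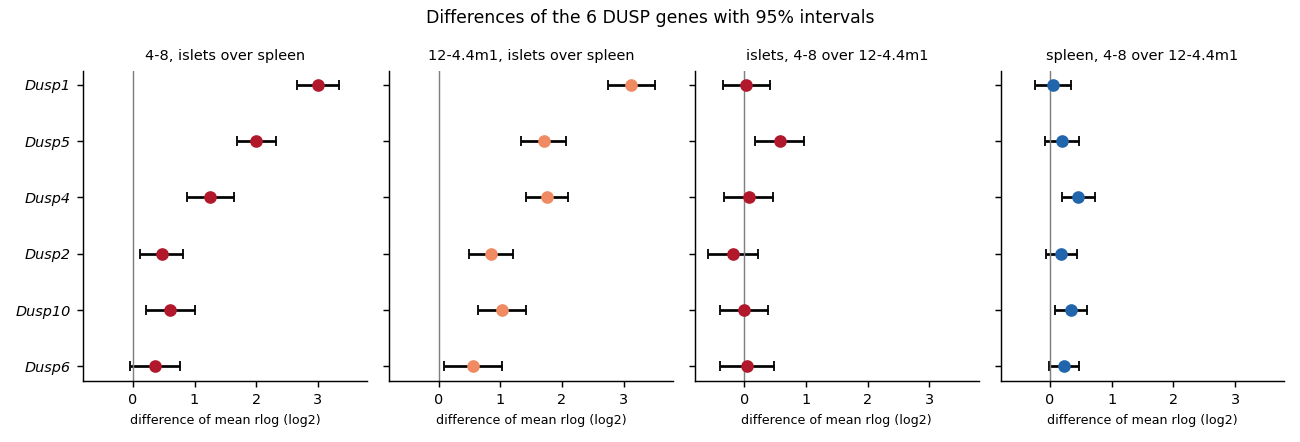
Differences of mean rlog values (log2, horizontal axis) of the 6 genes with 95% intervals, 1 panel per comparison; a positive value is higher in the group named first in the panel title. The tissue differences run from 0.35 to 3.12, and the TCR differences from -0.18 to 0.57.

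The 6 genes did not follow each other equally across libraries. As a description over 6 libraries per table and averaged over the 4 tables, which share libraries and in which the tissue contrast sets much of the pattern, Pearson's r of rlog values was highest for Dusp1 with Dusp5 (0.78) and Dusp2 with Dusp4 (0.78). It was lowest for Dusp1 with Dusp6 (0.18). Among 7928 genes with a mean normalized count of at least 10 in all tables, those most like Dusp1 were Ccr8, a chemokine receptor (mean r = 0.91, from 0.78 to 0.99 over the tables), Psma7, a proteasome subunit (0.87), and Got2, a mitochondrial transaminase (0.86). Dusp5 was most like Fdxr, a mitochondrial reductase (0.92), Pgam1, a glycolytic enzyme (0.92), and Ptpn22, a phosphatase of TCR signalling (0.91).

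Dusp4 was most like Ikzf3, a lymphocyte transcription factor (mean r = 0.91), Tet2, a DNA demethylation enzyme (0.88), and Fyn, a kinase of TCR signalling (0.87). Dusp2 was most like Itprip (0.87), Scaf1 (0.86) and Ap2m1, an adaptor of endocytosis (0.85). Dusp6 was most like Syne3 (0.89), Nfatc1, a factor activated by calcium signals (0.84), and Tnfrsf14, a receptor of the TNF family (0.83). Dusp10 was most like Vmp1 (0.88), Dot1l, a histone methyltransferase (0.87), and Sugp1 (0.87). No gene was the closest to 2 of the 6.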

How the data were processed

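Tregs were sorted from islets and spleen, and libraries were made by Triton X-100 lysis, reverse transcription, cDNA amplification and Nextera XT, per the labels. The submitters' processing notes name STAR 1.1.0, TopHat 1.0.0, DESeq2 1.1.0, DESeq and Cufflinks, with mm10 (GRCm38), and give no roles. For each of 4 comparisons the authors deposited rlog values on a log2 scale per library. Their DESeq2 tables gave the mean normalized count of a gene (a signal after size-factor scaling), a log2 fold change, a Wald score and a p-value, per the file headers. Their Cuffdiff tables gave 1 FPKM per group and a p-value, per the file headers. Raw counts and the depth of each library were not used here; the mean normalized counts summed to 898995 to 1316454 per table, and the number of libraries limits the precision. Folds in the deposited tables run the other way, and their signs were turned to islets over spleen and 4-8 over 12-4.4m1.

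Each table was fitted on its own with limma 3.58.1 in R 4.3.3, using moderated variances with a trend on mean level and 3 libraries a group. Genes with a mean normalized count of at least 10 were tested (8212 and 9108 between TCRs in islets and spleen, 8981 and 8438 between tissues for 4-8 and 12-4.4m1), with Benjamini-Hochberg adjustment over all of them, 2-sided. The fit was tested on simulated data with independent normal errors and variances taken from the fits themselves. Such data cannot test the effect of rlog compression, title style or pairing of libraries. A difference between fold changes of separate tables was not tested. Rows of repeated symbols, 4 in all, were left out, and 0 columns were left out. Of the islet 4-8 columns in the TCR comparison, 1 matches no title and was used without a replicate number. For spleen replicate 2 of both TCRs, descriptions point to the wrong tissue file, and titles were followed.

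The 6 genes and all gene lists were chosen with earlier results of these data known. Always named were the 6 genes, Dusp7, Dusp8, Dusp9, Dusp16, Mapk3, Mapk8, Mapk9, Mapk14, Foxp3, Cd3e and Cd4, with up to 3 genes of each other list and comparison that had the smallest p among those past an adjusted p of 0.05, and for each of the 6 genes the 3 genes of most similar pattern. Some results under this rule are not reported here. Fos between the TCRs in islets, and Ppm1a and Ptpn7 between tissues, were named after their values were seen. Other filters, variance models, scalings, left-out libraries, the replicate block, the title style and the authors' tables were tried. Positions and coding sequences are from GENCODE vM21, promoters from RefSeq.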

Additional observations from a re-analysis of the deposited data

How the results depend on the processing

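Leaving out 1 library at a time moved the number of genes called from 30 to between 9 and 44 (TCRs, islets), from 39 to between 14 and 56 (TCRs, spleen), from 717 to between 306 and 1211 (tissues, 4-8) and from 575 to between 288 and 610 (tissues, 12-4.4m1). Each such fit has fewer libraries. What else moved the counts was not tested. The authors' Cuffdiff tables called 57, 84, 1160 and 938 genes in the same order, and their DESeq2 table called 21 in spleen. In islets a minimum mean count of 50 gave 15 calls and the title style as a term 52. In spleen a fit without the mean-variance trend gave 17 calls and leaving out both libraries numbered 2 gave 11. With the replicate number as a block, 78 genes were called in spleen. There the deviations of same-numbered libraries correlated by 0.12, 0.0865 and 0.0748, all above those of differently numbered libraries (-0.0881 to 0.00785). In the tissue tables the same-numbered values were -0.118 to 0.0404, and the differently numbered ones -0.0763 to 0.133 for 4-8 and -0.036 to 0.0411 for 12-4.4m1. The labels do not say what a number marks, so the numbers were not taken as pairs. The SEs and intervals given for spleen therefore leave out any such pairing. The islet TCR table has an unnumbered column and was not fitted with the block. That column had Dusp1 at 10.10 and Dusp5 at 9.65, where islet 4-8 replicate 3 had 10.23 and 9.96 in the tissue table. Replicate 1 had Dusp1 at 10.28 and 10.41, and Dusp5 at 9.21 and 9.54, in the TCR and tissue tables. The unnumbered column may therefore be replicate 3, which the labels do not state. Of the 6 phosphatase genes, Cuffdiff called 5 instead of 3 between tissues for 4-8 and 1 instead of 0 between TCRs in spleen. Leaving out a library gave 3 to 4 (tissues, 4-8), 5 to 6 (tissues, 12-4.4m1) and 0 for both TCR comparisons. Their differences kept their sign in all settings for 19 of 24, and the 5 that turned were TCR differences of -0.003 to 0.07. Differences near 0 of genes that passed no threshold turned sign, and the cause was not tested. Between TCRs in islets, leaving out a library in turn gave Cd4 -0.16 to 0.12 (0.051 with the title style), Foxp3 -0.12 to 0.058 (0.048 without the unnumbered library, 0.022 with the title style, 0.0025 with centred libraries), Mapk3 -0.22 to 0.39 and Mapk9 -0.21 to 0.21 (0.079 with the title style). Between TCRs in spleen, the turned values were those of Dusp7 (-0.053 without those numbered 2) and Mapk3 -0.027 to 0.18. Between tissues for 4-8 it was Mapk8 -0.25 to 0.040. Between tissues for 12-4.4m1 they were Foxp3 -0.014 to 0.19, Mapk3 -0.029 to 0.61, Mapk8 -0.14 to 0.064 and Mapk9 -0.31 to 0.15.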
